A study of Mus musculus with 8 samples.

Results

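Catenins and the cadherins they bind were followed across mouse embryonic stem cells with and without β-catenin, each kept with a GSK3 inhibitor or its vehicle. The genes were chosen by name: Ctnnb1 (β-catenin), Jup (plakoglobin), Ctnna1 and Ctnna2 (α-catenins), Ctnnd1 (p120-catenin), Cdh1 (E-cadherin), Cdh3 (P-cadherin), and the desmosome genes Dsp (desmoplakin), Dsg2 (desmoglein 2) and Pkp2 (plakophilin 2). They are 10 of the 48440 genes in the deposited count table, and 9 of them had enough counts to be tested, all except Ctnna2. The parental line is CTNNB1+/+ and the knock-out line is CTNNB1-/-, both of 129/Ola background and labelled as blastocyst-stage embryonic stem cells. Each line received CHIR99021, which inhibits the kinase GSK3, at 3 μM, or DMSO at 0.3 μl/ml, for 72 hours. All 4 groups grew in medium with 10% serum on gelatin without feeder cells, and each group has 2 libraries of polyadenylated RNA. The labels do not say how the knock-out was made, whether it is a single clone, or whether the replicates come from separate cultures. The p-values therefore describe scatter among these libraries, and that scatter may be technical.

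A classical cadherin spans the cell membrane, holds the cadherin of the neighbouring cell with its outer part, and binds catenins with its tail. p120-catenin sits near the membrane and slows removal of the cadherin, while β-catenin or plakoglobin occupies the far end of the tail and recruits α-catenin, which connects to actin. β-catenin also has a life outside the junction: GSK3 phosphorylates the free protein and marks it for destruction, and when GSK3 is inhibited the protein accumulates and acts with TCF/LEF factors in the nucleus. Plakoglobin is its closest relative and is found in both adherens junctions and desmosomes. In desmosomes the cadherins are desmogleins and desmocollins, which plakoglobin and plakophilins join to desmoplakin and so to keratin filaments. E-cadherin is the main cadherin of embryonic stem cells and is needed for their compact colonies. These are properties of proteins, and the measurements here are of RNA.

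The total of estimated counts was 23650572 to 27680649 per library, and replicates of a group correlated at 0.9866 to 0.9894 on log2 CPM across genes. CPM is the count of a gene relative to its library's scaled total, as edgeR gives it. All 6 pluripotency markers examined (Pou5f1, Sox2, Nanog, Zfp42, Esrrb, Klf4) were present, with summed levels of 3528 to 4107 CPM per library. The sum was 4052 to 4107 CPM in parental cells with DMSO and 3757 to 3791 with CHIR99021. In the knock-out it was 3726 to 3888 CPM with DMSO and 3528 to 3572 with CHIR99021. Klf4 went against the sum in parental cells, at 279.4 and 281.2 CPM with CHIR99021 and 241.7 and 229.4 with DMSO. Of the markers of other cell types, those of streak and mesoderm (5 of 5 detected) summed to 42.7 and 44.5 CPM in parental cells with CHIR99021 and to 2.86 to 3.99 CPM in the other 6 libraries. Eomes, at 30.5 and 30.4 CPM there against 1.42 and 1.54 with DMSO, and T, at 12.3 and 10.4 against 0.472 and 0.207, made up nearly all of that sum. Trophoblast markers (6 of 6 detected) summed to 34.6 and 35.3 CPM there and to 3.82 to 5.26 CPM elsewhere, but Eomes is on that list too and carried the difference. Of the other trophoblast markers Cdx2 was at 1.34 and 1.8 CPM against 0.129 and 0.083, and Elf5 and Krt7 overlapped between these groups. Hand1 (0.0766 and 0.0418 CPM against 0.0859 and 0.332) and Gata3 (0.0383 and 0.0418 against 0.0429 and 0.083) were near the limit of detection. As 3 counts are 0.115 to 0.129 CPM in these libraries, no direction is read from Hand1 and Gata3. Primitive endoderm markers (6 of 6) were at 13.4 and 14.8 CPM in parental cells with CHIR99021 and 22.5 to 23.1 with DMSO. In the knock-out they were at 28.2 to 31.5 CPM. Sox7 carried the difference between the parental groups (14.3 and 13.9 CPM with DMSO, 4.14 and 5.35 with CHIR99021), while Pdgfra was higher with CHIR99021. Between the lines Gata4 was at 10.2 to 11.5 CPM in the knock-out and 4.21 to 5.81 in parental cells. Dab2 was at 4.75 to 5.33 and 1.67 to 2.12 CPM, while Sox7 with DMSO was lower in the knock-out (12.7 and 11.6 CPM). Neural markers, mostly Tubb3, were at 43.4 and 45 CPM in parental cells with CHIR99021 and at 73.9 to 96.8 CPM in the rest. Neurog2 had 0 counts in all groups. Fibroblast markers summed to 5.11 to 10.5 CPM over all libraries, with Dcn at 0 in every group and Col3a1 at 0 in all groups except the knock-out with CHIR99021. In bulk RNA, fewer cells with a transcript and less of it per cell cannot be told apart. Genotype and cell line coincide, so a difference between the lines cannot be told apart from any other difference between them.

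Levels of different genes were compared per kilobase of exon. In parental cells with DMSO the order was Ctnnb1 at 207 CPM per kilobase, Ctnna1 at 151, Cdh1 at 49.9, Jup at 39.3, Ctnnd1 at 37.8, Dsg2 at 6.97, Pkp2 at 4.95, Cdh3 at 4.89 and Dsp at 1.65. Neighbours in that order had libraries that did not overlap, except Pkp2 and Cdh3. The adherens junction catenins and E-cadherin thus stood well above the desmosome genes and P-cadherin on this scale. In parental cells with CHIR99021 the order was the same, with Cdh3 down to 1.83 CPM per kilobase, near Dsp at 1.67. In the knock-out with DMSO Ctnna1 led with 144 CPM per kilobase and Ctnnb1 came after Cdh3 with 2.16, and the neighbours Ctnnd1 (40.3) and Jup (39.3) had libraries that overlapped. Pkp2, at 7.77 CPM per kilobase, passed Dsg2, at 6.27, in that group, an order that holds for the union of exons and turns round when the longest coding transcript is used as the length. In the knock-out with CHIR99021 Jup had dropped to 30.7 CPM per kilobase, below Ctnnd1 at 38.9, and Cdh3 at 2.33 stood next to Ctnnb1 at 2.09; with the longest transcript these last genes changed places.

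**Figure D1:**
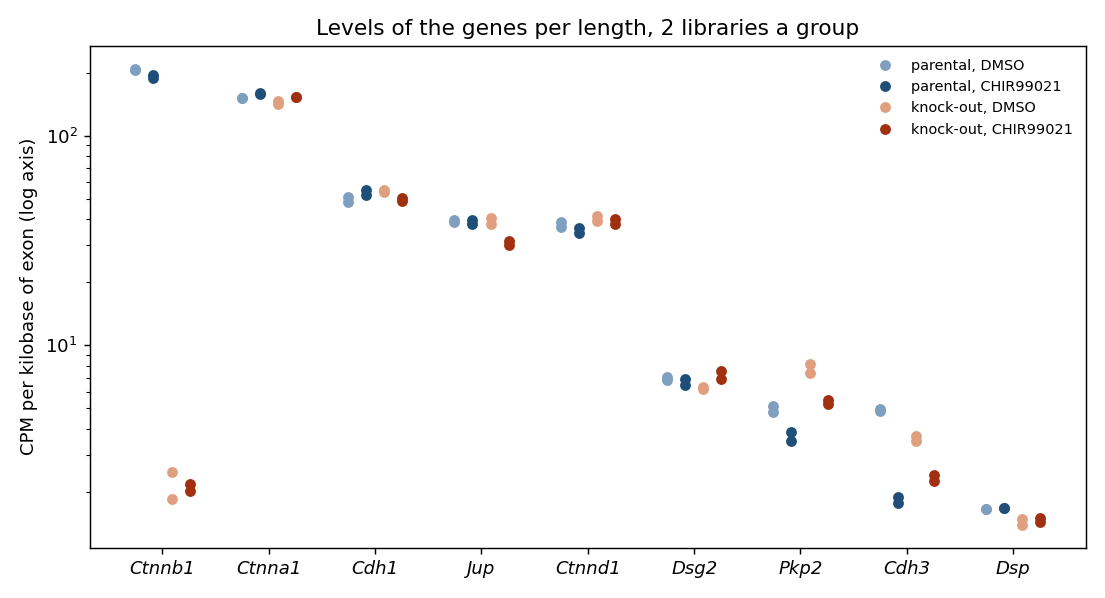
Level of each gene as CPM per kilobase of exon on a log axis, with 1 point per library and colours for the 4 groups; Ctnna2 is left out because it was at 0 in 3 libraries. Ctnnb1 goes from the highest level in parental cells (207 CPM per kilobase with DMSO) to about the level of Cdh3 and Dsp in the knock-out (2.16), while Ctnna1 and Cdh1 stay within a narrow band.

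Ctnnb1 checks the labels of the lines. This gene (ENSMUSG00000006932, chromosome 9, 120929216 to 120960507, + strand, GRCm38) was at 887.5 and 905.6 CPM in the parental DMSO libraries, at 813.4 and 843.5 with CHIR99021, at 7.98 and 10.7 in the knock-out with DMSO and at 8.7 and 9.42 in the knock-out with CHIR99021. Every library matches its label, and the knock-out retained 1.04% of the parental level in DMSO and 1.09% in CHIR99021. The log2 fold change between the lines was -6.59 ± 0.09 (SE) in DMSO and -6.52 ± 0.09 in CHIR99021 (edgeR adjusted p = 7.48e-12 and 8.49e-12). The residue rests on 220 to 281 counts in each knock-out library. Ulk4, which is annotated on the opposite strand, overlaps the span of Ctnnb1. Whether their exons overlap was not examined, and the strand setting of the counting is not given in the sources used here. Whether some of these counts are Ulk4 reads therefore cannot be told here. CHIR99021 moved the transcript little: the log2 fold change was -0.11 ± 0.06 in parental cells (95% interval -0.25 to 0.02, adjusted p = 0.245) and -0.04 ± 0.11 in the knock-out (-0.29 to 0.21, adjusted p = 0.871). The parental value passed without a filter on low counts (adjusted p = 0.024) and with the compared groups alone (adjusted p = 0.0458).

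Jup, the gene of plakoglobin (ENSMUSG00000001552, chromosome 11, 100368958 to 100397763), showed no measurable rise in cells that lack β-catenin, and it fell there with CHIR99021. It was at 125.3 and 128.0 CPM in parental cells with DMSO, 127.2 and 121.9 with CHIR99021, 130.7 and 122.4 in the knock-out with DMSO, and 100.7 and 97.2 in the knock-out with CHIR99021. The 2 knock-out libraries with CHIR99021 lay below the other 6, which overlapped one another. In DMSO the lines differed by a log2 fold change of -0.001 ± 0.05 (SE), with a 95% interval of -0.10 to 0.10 (edgeR adjusted p = 0.993). CHIR99021 lowered Jup in the knock-out, from 126.6 ± 5.87 to 98.9 ± 2.52 CPM (SD, n = 2 each), and its log2 fold change was -0.36 ± 0.05 (edgeR adjusted p = 0.00162). In parental cells the value was -0.02 ± 0.05 (95% interval -0.13 to 0.08, adjusted p = 0.768). The difference between those responses was tested by the interaction of genotype and CHIR99021 and came to -0.33 ± 0.07 (adjusted p = 0.0123), a call that did not hold when parental DMSO replicate 1 was left out (adjusted p = 0.0536), nor for parental CHIR99021 replicate 1 (0.0634) or knock-out CHIR99021 replicate 2 (0.0752). With CHIR99021 in both lines the knock-out was lower, at a log2 fold change of -0.33 ± 0.05 (adjusted p = 0.000418). Per kilobase the ratio of Jup to Ctnnb1 was 0.19 ± 0.000189 (SD, n = 2) for the parental line in DMSO and 0.202 ± 0.0113 (SD, n = 2) with CHIR99021. It was 18.2 ± 4.73 in the knock-out with DMSO and 14.7 ± 1.2 with CHIR99021 (SD, n = 2 each), beside Jup levels of 126.6 and 98.9 CPM in those groups.

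The promoters of these close relatives are shown as a description. Ctnnb1 is the gene that was targeted, so its 1.04% of the parental level in the knock-out with DMSO is not a reading of its promoter. Jup, in the same comparison, was within 0.10 on the log2 scale by its interval. The windows are the 250 bases before the RefSeq start site on GRCm38.p6, chr9:120933150-120933399 on the + strand for Ctnnb1 and chr11:100397791-100398040 on the - strand for Jup, 5′ to 3′. Capitals mark GGGCGG, the core letters of the GC box that Sp and Klf proteins bind, on either strand.
Ctnnb1: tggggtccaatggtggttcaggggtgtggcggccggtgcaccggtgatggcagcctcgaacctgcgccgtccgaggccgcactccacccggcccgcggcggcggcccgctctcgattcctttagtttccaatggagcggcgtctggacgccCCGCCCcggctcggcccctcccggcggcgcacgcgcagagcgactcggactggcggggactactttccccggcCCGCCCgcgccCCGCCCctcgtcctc
Jup: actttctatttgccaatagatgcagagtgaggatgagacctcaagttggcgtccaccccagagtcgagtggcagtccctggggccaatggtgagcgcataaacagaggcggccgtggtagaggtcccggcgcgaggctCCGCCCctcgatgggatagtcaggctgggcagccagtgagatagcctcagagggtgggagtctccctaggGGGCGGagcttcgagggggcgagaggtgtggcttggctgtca
Ctnnb1 holds 3 such matches, at 99, 26 and 15 bases before the start, and Jup holds 2, at 112 and 42 bases; 32.7% of the 32851 RefSeq windows of this length hold at least 1. Neither window holds CTTTGA or CTTTGT, letters of the TCF/LEF site (in 13.8% and 16.5% of all windows), or CACCTG, the E-box that Snail and Zeb proteins bind (17.2%), on either strand. The Ctnnb1 window lies within the gene span given above, which begins at 120929216, and sequence before any other start of Ctnnb1 was not examined. These are matches of letters in a short window, not measurements of binding. Of the 10 genes 5 are in the promoter table used: Ctnnb1, Jup, Ctnna2, Ctnnd1 and Dsp.

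Neither of the catenins that complete the adherens junction passed the test in any comparison. Ctnna1 (ENSMUSG00000037815, chromosome 18, 35118859 to 35254779), the α-catenin of epithelia and embryonic cells that connects the cadherin complex to actin, was at 663.2 and 666.1 CPM in parental cells with DMSO, 694.1 and 703.8 with CHIR99021, 645.0 and 626.2 in the knock-out with DMSO, and 672.7 and 676.4 in the knock-out with CHIR99021. The CHIR99021 libraries lay above the DMSO libraries in each line without overlap, by log2 fold changes of 0.07 ± 0.03 and 0.09 ± 0.03 (SE), and neither passed (edgeR adjusted p = 0.166 and 0.151). Between the lines the values were -0.06 ± 0.03 in DMSO and -0.05 ± 0.03 in CHIR99021 (adjusted p = 0.307 and 0.306). Its 95% intervals in all 4 comparisons lie between -0.14 and 0.16. Ctnnd1 (ENSMUSG00000034101, chromosome 2, 84600071 to 84650765), which encodes p120-catenin, was at 249.4 and 237.3, 220.8 and 232.6, 251.7 and 266.3, and 256.6 and 243.4 CPM in the same order of groups. The knock-out with CHIR99021 was above parental cells with CHIR99021 by 0.14 ± 0.05 (adjusted p = 0.0522), which missed the threshold and passed without a low-count filter (0.0181), with at least 5 CPM required in 2 libraries (the stricter filter, 0.0201), with the compared groups alone (0.0426), and without knock-out DMSO replicate 1 (0.0458) or 2 (0.0426). The other comparisons of Ctnnd1 gave log2 fold changes of -0.10 to 0.09 and did not pass. Annotated genes overlap the spans of both, Lrrtm2 on the opposite strand of Ctnna1 and Gm28635 on the same strand as Ctnnd1. Whether their exons overlap was not examined, so any shared reads cannot be told apart here.

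Ctnna2, the α-catenin of neurons, was near the limit of detection. The parental libraries with DMSO had 0 counts each, which allows up to 0.129 and 0.124 CPM at 3 counts. Parental cells with CHIR99021 had 3 and 0 counts, the knock-out with DMSO 3 and 5, and the knock-out with CHIR99021 5 and 2. Over 4 libraries each the sums were 3 and 15 counts, a ratio of 4.52 for knock-out to parental with a 95% binomial interval of 1.28 to 24.3, which covers counting error only. Ctnna2 did not pass the filter on low counts and was not tested. Its span is overlapped by 10 annotated genes, of which Gm44437, on the same strand, had enough counts to be tested. Whether their exons overlap was not examined, so any shared reads cannot be told apart.

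The cadherin genes behaved unlike each other. Cdh1 (ENSMUSG00000000303, chromosome 8, 106603351 to 106670246) and Cdh3 (ENSMUSG00000061048, chromosome 8, 106510891 to 106557297) lie on the same strand, 46.1 kb apart. Cdh1, which encodes E-cadherin, was at 226.6 and 215.1 CPM in parental cells with DMSO, 232.1 and 244.3 with CHIR99021, 243.1 and 240.1 in the knock-out with DMSO, and 223.1 and 216.5 in the knock-out with CHIR99021. The range over all 8 libraries was thus narrow. The knock-out with DMSO lay above its parental counterpart and the knock-out with CHIR99021 below, in each case without overlap. CHIR99021 gave a log2 fold change of 0.11 ± 0.04 (SE) in the parental line and -0.14 ± 0.04 in the knock-out, and neither passed (edgeR adjusted p = 0.102 and 0.0823), although the knock-out value did without a low-count filter (0.033). The difference of these responses did pass, at -0.25 ± 0.06 (interaction, adjusted p = 0.0356); the call did not hold when any of 6 libraries was left out: parental DMSO replicate 2 (adjusted p = 0.137), parental CHIR99021 replicate 2 (0.112), knock-out DMSO replicate 1 (0.096) or 2 (0.0512), or knock-out CHIR99021 replicate 1 (0.071) or 2 (0.16). Between the lines Cdh1 differed by 0.13 ± 0.04 in DMSO and -0.12 ± 0.04 in CHIR99021 (adjusted p = 0.105 and 0.0731); the first passed with the stricter filter (adjusted p = 0.0479).

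Cdh3, which encodes P-cadherin, fell with CHIR99021 in both lines and fell further in the parental line. It was at 21.7 and 21.2 CPM in parental cells with DMSO and 7.78 and 8.24 with CHIR99021, against 15.3 and 16.2 in the knock-out with DMSO and 9.87 and 10.6 with CHIR99021. No group overlapped another, and the order of the lines crossed over: the knock-out was below parental cells in DMSO and above them in CHIR99021. In parental cells the level went from 21.4 ± 0.337 to 8.01 ± 0.326 CPM (SD, n = 2 each), which is 37.3% of the DMSO level, with a log2 fold change of -1.42 ± 0.08 (SE; edgeR adjusted p = 5.19e-07). In the knock-out it went from 15.7 ± 0.672 to 10.2 ± 0.5 CPM (SD, n = 2 each), 65% of the DMSO level, with a log2 fold change of -0.62 ± 0.08 (adjusted p = 0.00149). The difference of the responses was 0.80 ± 0.11 (interaction, adjusted p = 0.00155), and it passed in all 13 alternatives tried, with values from 0.76 to 0.85. Between the lines the log2 fold change was -0.45 ± 0.07 in DMSO (adjusted p = 0.00583) and 0.35 ± 0.09 in CHIR99021 (adjusted p = 0.0123). The DMSO call was lost with DESeq2 (adjusted p = 0.0682) or when parental DMSO replicate 1 (0.0589) was left out, or knock-out DMSO replicate 1 (0.0528). The CHIR99021 call was lost with DESeq2 (0.161) and without parental CHIR99021 replicate 1 (0.0996) or knock-out CHIR99021 replicate 2 (0.079). The fall in parental cells coincided with the higher Eomes and T and the lower Sox7 and Tubb3 given above. In the knock-out, where Cdh3 fell as well, streak markers summed to 3.43 to 3.99 CPM with DMSO and 2.86 to 3.02 CPM with CHIR99021. Sox7 was lower there too, at 9.63 and 8.73 CPM with CHIR99021 against 12.7 and 11.6 with DMSO. Tubb3 was at 61.7 and 60.8 CPM against 82.9 and 72.9. The part of Eomes, T, Sox7 and Tubb3 in either fall of Cdh3 was not tested.

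**Figure D2:**
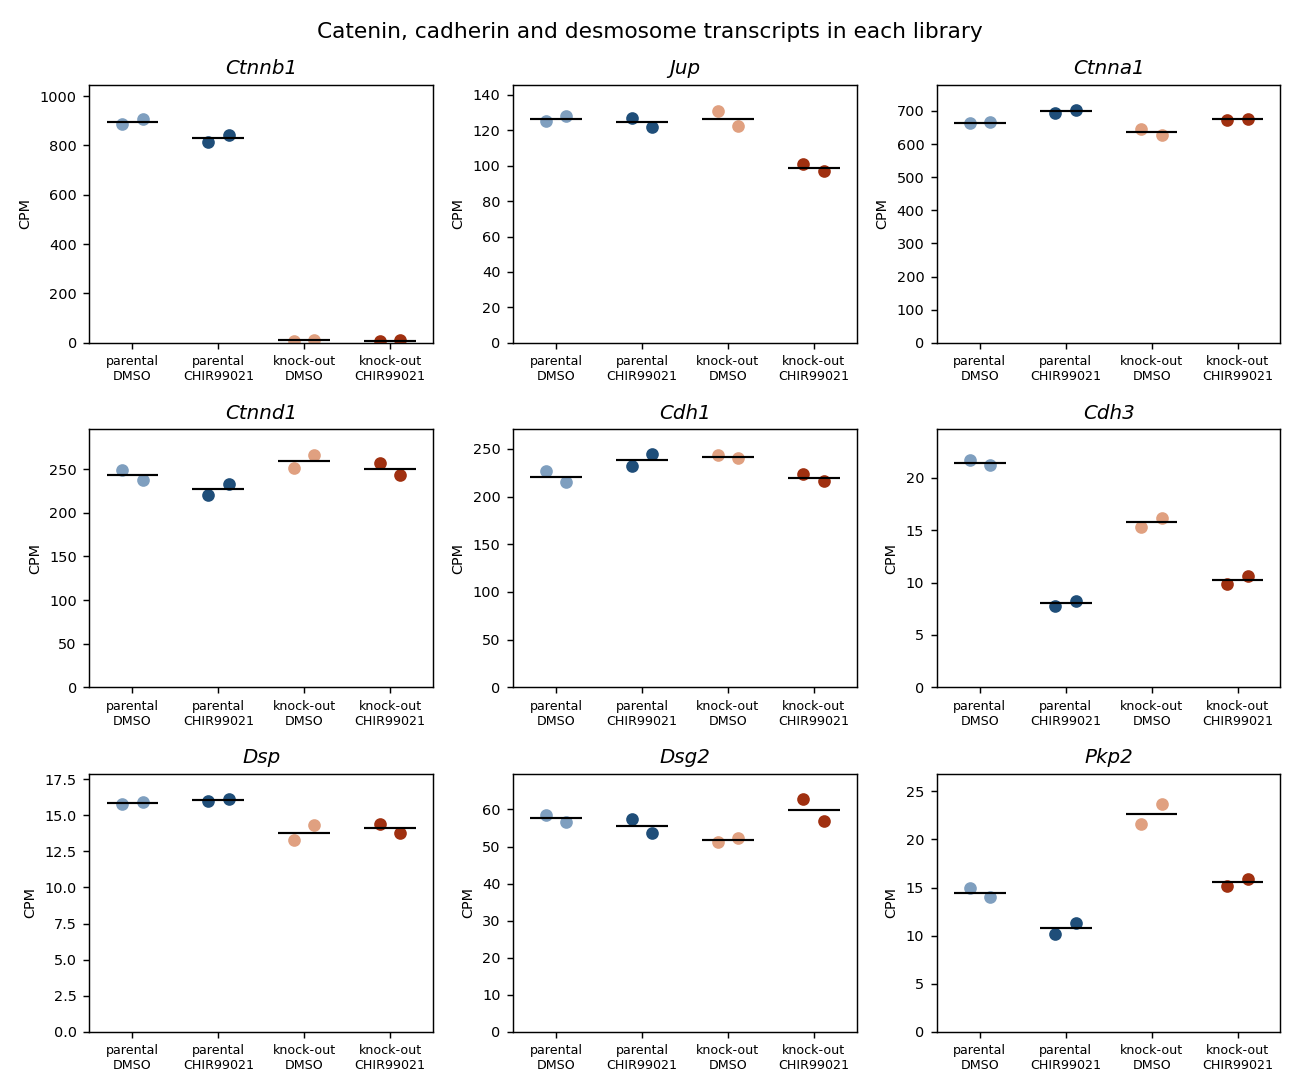
CPM of each tested gene in every library on a linear axis from 0; points are the 2 libraries of a group and black lines their mean. Ctnnb1 separates the lines, Cdh3 and Pkp2 drop with CHIR99021 in each line, Jup drops in the knock-out (100.7 and 97.2 CPM against 121.9 to 130.7 elsewhere), and the others keep to narrow ranges.

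Among Pkp2, Dsg2 and Dsp, Pkp2 was the one that passed the test in a comparison. Jup, given above, encodes a protein that is also found in desmosomes. Pkp2 (ENSMUSG00000041957, chromosome 16, 16213318 to 16272712) encodes plakophilin 2, which ties desmosomal cadherins to desmoplakin. It was at 14.9 and 14 CPM in parental cells with DMSO, 10.2 and 11.3 with CHIR99021, 21.6 and 23.7 in the knock-out with DMSO, and 15.2 and 15.9 in the knock-out with CHIR99021. No group overlapped another. The knock-out was higher in each medium, by a log2 fold change of 0.65 ± 0.08 (SE) in DMSO, from 14.4 ± 0.646 to 22.7 ± 1.5 CPM (SD, n = 2 each; edgeR adjusted p = 0.00119), and by 0.54 ± 0.09 in CHIR99021 (adjusted p = 0.00101). CHIR99021 lowered it by a log2 fold change of -0.43 ± 0.09 in parental cells (adjusted p = 0.00538) and -0.54 ± 0.08 in the knock-out (adjusted p = 0.00312). The parental call on Pkp2 did not hold with DESeq2 (adjusted p = 0.0528) or when parental DMSO replicate 1 was left out (0.0517) or parental CHIR99021 replicate 1 (0.0711). The responses of the lines differed by -0.11 ± 0.12, with a 95% interval of -0.37 to 0.15 (interaction, adjusted p = 0.667).

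The desmosomal cadherin and desmoplakin changed less. Dsg2 (ENSMUSG00000044393, chromosome 18, 20558074 to 20604521), a transmembrane cadherin of desmosomes that Gm16090 overlaps on the opposite strand, was at 58.6 and 56.6 CPM in parental cells with DMSO, 57.3 and 53.7 with CHIR99021, 51.3 and 52.3 in the knock-out with DMSO, and 62.7 and 56.8 in the knock-out with CHIR99021. The knock-out libraries with CHIR99021 lay above those with DMSO, a log2 fold change of 0.21 ± 0.06 (SE) that missed the threshold (edgeR adjusted p = 0.0598). It passed without a low-count filter (0.0173) and with the stricter filter (0.0272). The interaction for Dsg2 was 0.26 ± 0.08 (adjusted p = 0.0997), and it passed without a low-count filter (adjusted p = 0.0367). Dsp (ENSMUSG00000054889, chromosome 13, 38151294 to 38198577), whose product desmoplakin anchors keratin filaments, was at 15.8 and 15.9 CPM in parental cells with DMSO, 16 and 16.1 with CHIR99021, 13.3 and 14.3 in the knock-out with DMSO and 14.4 and 13.8 in the knock-out with CHIR99021. All 4 knock-out libraries were below all 4 parental libraries, at log2 fold changes of -0.20 ± 0.07 in DMSO and -0.18 ± 0.07 in CHIR99021, neither of which passed (adjusted p = 0.144 and 0.0921). CHIR99021 gave Dsp 0.02 ± 0.07 in the parental line and 0.03 ± 0.07 in the knock-out (adjusted p = 0.906 and 0.847).

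Counted over the genes, CHIR99021 in parental cells changed 2 of the 9 tested, both lower (Cdh3 and Pkp2), where 19.4% of all 17739 genes tested were called, 9.1% higher and 10.3% lower. In the knock-out it changed 3 of 9, all lower (Jup, Cdh3 and Pkp2), against 7.06% of all genes, 2.88% higher and 4.18% lower. The knock-out in DMSO differed from parental cells in 3 of 9, with Pkp2 higher and Ctnnb1 and Cdh3 lower, against 6.75% of all genes, 3.13% higher and 3.62% lower. In CHIR99021 it differed in 4 of 9, with Cdh3 and Pkp2 higher and Ctnnb1 and Jup lower, against 23.7% of all genes, 11.2% higher and 12.5% lower. The interaction was called for 3 of 9, with Cdh3 positive and Jup and Cdh1 negative, against 6.13% of all genes, 3.22% positive and 2.91% negative. With 1 library left out the interaction was called for 2 of the 9, or for 1 without knock-out CHIR99021 replicate 2. The all-gene count with CHIR99021 in the knock-out went from 1252 to 335 without knock-out DMSO replicate 1 and to 307 or 328 without CHIR99021 replicate 1 or 2, while 3 of the 9 were called in each case. Between the lines in DMSO it went from 1198 to 357 or 510 without parental replicate 1 or 2 and to 561 or 717 without knock-out replicate 1 or 2. These counts stand on few genes, and Ctnnb1 is the gene that was targeted. The median log2 fold change of the 9 genes was -0.05, -0.05, -0.06 and -0.05 in the first 4 comparisons and 0.01 in the interaction, beside medians of 0.004, -0.003, 0.003, 0.001 and -0.001 over all genes. Libraries of the compared groups did not overlap for 7, 6, 8 and 8 of the 9 genes in the first 4 comparisons, where 59.4%, 52.3%, 49.6% and 62.4% of all genes did not overlap either. The comparisons share groups, so they are not independent of each other.

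**Figure D3:**
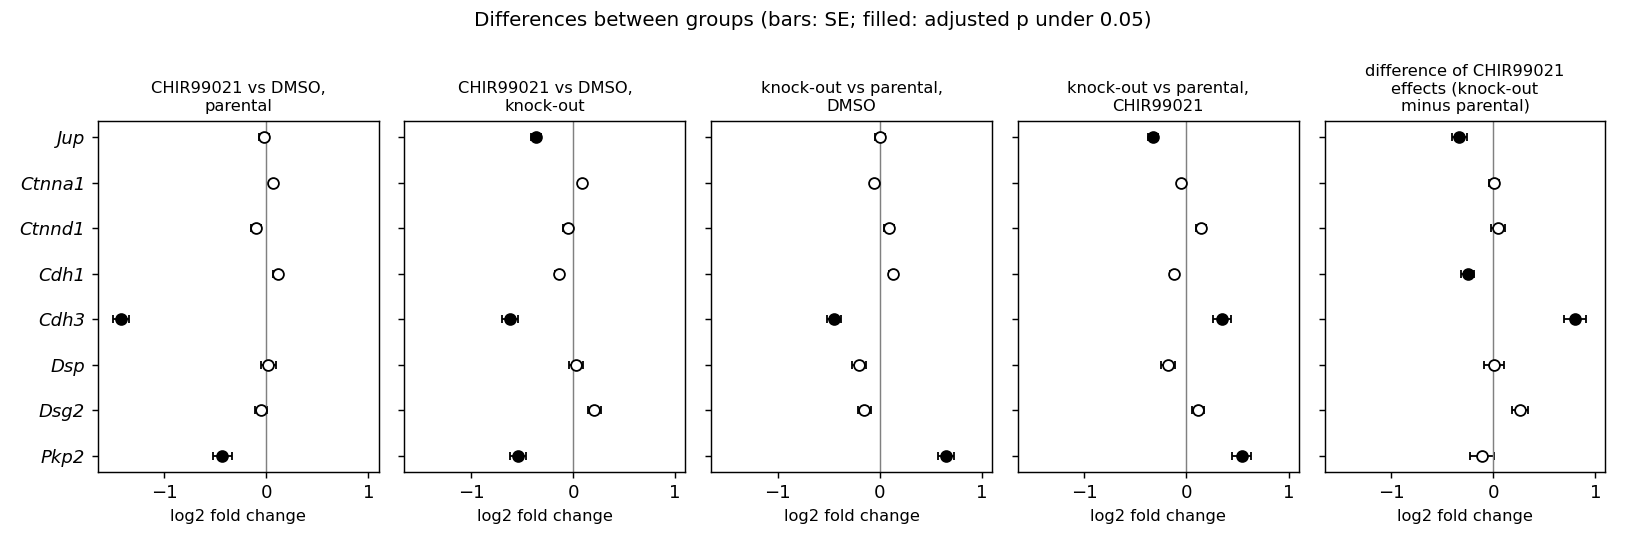
Log2 fold change with its SE for 8 of the genes in the 4 comparisons and the interaction; filled points passed an adjusted p of 0.05 and Ctnnb1, at -6.59 and -6.52 between the lines, is left out for scale. Cdh3 has the lowest value with CHIR99021 in parental cells (-1.42), and its sign between the lines turns from -0.45 in DMSO to 0.35 in CHIR99021.

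Other genes of the same junctions were read from lists chosen, like the genes above, with earlier results of these data known. Of 14 other classical and related cadherins 7 were tested, and the rest had at most 39 counts over all libraries. CHIR99021 raised 1 and lowered 2 of the 7 in the parental line and raised 1 in the knock-out by edgeR (42.9% and 14.3%, against 19.4% and 7.06% of all genes; median log2 fold changes 0.01 and -0.26). DESeq2 called 1 higher and 0 lower in the parental line, losing the falls of Cdh5 (adjusted p = 0.166) and Cdh4 (0.325), and 0 in the knock-out. The riser was Cdh22 in both, at 1.13 ± 0.19 (SE) from 2.55 ± 0.446 to 5.6 ± 0.643 CPM (SD, n = 2 each) in parental cells (edgeR adjusted p = 0.00183) and at 1.07 ± 0.21 in the knock-out (adjusted p = 0.0133). The knock-out call on Cdh22 was lost without knock-out DMSO replicate 1 (adjusted p = 0.12) or CHIR99021 replicate 2 (0.106). Cdh2, the N-cadherin of neural and mesodermal cells, was low in all groups: 1.23 ± 0.268, 1.95 ± 0.445, 1.15 ± 0.0637 and 1.41 ± 0.136 CPM (SD, n = 2 each) in parental DMSO, parental CHIR99021, knock-out DMSO and knock-out CHIR99021. Its log2 fold change with CHIR99021 was 0.67 ± 0.27 in the parental line and 0.29 ± 0.28 in the knock-out, and neither passed (adjusted p = 0.117 and 0.589). Between the lines edgeR called 0 of the 7 in DMSO (6.75% of all genes) and 2 in CHIR99021 (28.6% against 23.7%). With CHIR99021 Cdh5 was at 1.59 ± 0.434 CPM in the knock-out and 0.415 ± 0.172 in parental cells (SD, n = 2 each). Its log2 fold change was 1.90 ± 0.35 (SE, edgeR adjusted p = 0.00254). Cdh22 was lower in the knock-out, at -0.71 ± 0.19 (adjusted p = 0.0171), a call lost with DESeq2 (0.13).

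Of 8 tested genes among the other catenin and armadillo genes (10 listed), 3 fell with CHIR99021 in each line, 37.5% against 19.4% and 7.06% of all genes, and 0 rose (edgeR; 0 also at an unadjusted p of 0.05, and 0 by DESeq2, which called 2 lower in parental cells and 1 lower in the knock-out), with medians of -0.15 in the parental line and -0.16 in the knock-out. Ctnnal1, an α-catenin-like gene, changed in the most comparisons of these: it was at 83.5 ± 1.38 CPM in parental cells with DMSO, 52.9 ± 0.00453 with CHIR99021, 102.5 ± 0.223 in the knock-out with DMSO and 80.3 ± 1.06 with CHIR99021 (SD, n = 2 each). CHIR99021 gave it -0.66 ± 0.04 in the parental line and -0.35 ± 0.04 in the knock-out (edgeR adjusted p = 1.33e-06 and 0.000916), and the knock-out was higher by 0.30 ± 0.04 in DMSO and 0.60 ± 0.04 in CHIR99021 (adjusted p = 0.00204 and 2.44e-06). The interaction for Ctnnal1 was 0.31 ± 0.06 (adjusted p = 0.0103), lost without knock-out CHIR99021 replicate 1 (adjusted p = 0.0536).

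The list of adherens junction partners and nectins had 15 genes, all tested. In parental cells CHIR99021 lowered 7 and raised 3 of them, 66.7% against the 19.4% of all genes, with a median of -0.19. In the knock-out 3 fell and 1 rose, 26.7% against 7.06% of all genes, with a median of 0.01. Zyx, whose product zyxin gathers at actin attached to junctions and adhesions, rose in parental cells from 6.52 ± 0.187 to 19.9 ± 1.06 CPM and was at 6.94 ± 0.486 and 7.01 ± 0.135 CPM in the knock-out with DMSO and CHIR99021 (SD, n = 2 each). Its log2 fold change in parental cells was 1.61 ± 0.09 (SE; edgeR adjusted p = 6.08e-07), and the interaction was -1.60 ± 0.14 (adjusted p = 5.07e-05). Lima1, an actin-binding partner of α-catenin, rose by 0.65 ± 0.09 in parental cells (adjusted p = 0.000272), with an interaction of -0.80 ± 0.12 (adjusted p = 0.00269). Ajuba, a LIM protein that binds α-catenin, fell in both lines, by 0.61 in the parental line and 0.43 in the knock-out on the log2 scale (adjusted p = 1.91e-05 and 0.00149). Actn1, an actin crosslinker, also fell in both, at -0.29 ± 0.04 and -0.20 ± 0.04 (adjusted p = 0.000215 and 0.0112), with an interaction of 0.10 ± 0.05 (adjusted p = 0.335); the knock-out call was lost without knock-out DMSO replicate 1 (0.0787), CHIR99021 replicate 1 (0.0676) or CHIR99021 replicate 2 (0.0961). With CHIR99021 in both lines the knock-out had 7 of the 15 higher and 3 lower (median 0.09), against 23.7% of all genes called. Afdn, which links nectins to actin, and Plekha7, a partner of p120-catenin, were higher there by 0.27 ± 0.04 and 0.36 ± 0.04 (adjusted p = 0.00085 and 0.000109). In DMSO the knock-out had 2 higher and 1 lower, 20% against 6.75% of all genes (median -0.00). DESeq2 called 2 higher and 7 lower of this list with CHIR99021 in the parental line, 0 and 3 in the knock-out, 1 and 0 between the lines in DMSO, and 6 and 2 between them in CHIR99021.

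Among 8 tested genes of the other desmosome list (13 listed), CHIR99021 raised 2 and lowered 0 in each line by edgeR (0 lower also at an unadjusted p of 0.05), 25% against 19.4% and 7.06% of all genes, with medians of 0.30 and 0.18; DESeq2 called 1 higher in the parental line, 0 in the other. The desmocollin and desmoglein genes Dsc1, Dsc3, Dsg1a, Dsg3 and Dsg4 had 0 to 7 counts over all libraries and were not tested, so among the desmogleins read here Dsg2 had the measurable level. Krt8, a keratin of simple epithelia, rose in parental cells from 15.9 ± 0.71 to 28.5 ± 1.26 CPM (SD, n = 2 each), and edgeR's log2 fold change was 0.85 ± 0.07 (SE, adjusted p = 6.95e-06). In the knock-out Krt8 was at 0.32 ± 0.07 (adjusted p = 0.0206, lost without knock-out DMSO replicate 1 at 0.141, CHIR99021 replicate 1 at 0.0808 or CHIR99021 replicate 2 at 0.124, and with DESeq2 at 0.157). Of the trophoblast markers given above, Eomes and Cdx2 were higher in the same parental libraries and the other 4 were not, and their part in the Krt8 value was not tested.

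Tight junction genes, of which 13 of 14 were tested, gave 2 lower in parental cells with CHIR99021 (15.4% against 19.4% of all genes, median -0.02) and 1 higher and 1 lower in the knock-out (15.4% against 7.06%, median 0.04). Tjp1, whose product is the scaffold protein ZO-1, was among the parental ones, at -0.22 ± 0.04 (SE; edgeR adjusted p = 0.00195). Cldn4, a claudin, rose in the knock-out from 14.9 ± 0.144 to 21 ± 1.22 CPM (SD, n = 2 each), and its log2 fold change was 0.49 ± 0.07 (adjusted p = 0.0021), with an interaction of 0.61 ± 0.10 (adjusted p = 0.00305). Among 10 genes that act on E-cadherin transcription or epithelial state, CHIR99021 lowered the same 2 in each line (20% against 19.4% and 7.06% of all genes): Grhl2, an activator of epithelial genes, at -1.47 ± 0.16 and -1.13 ± 0.14 (adjusted p = 5.68e-05 and 0.0012), and Epcam, an epithelial adhesion molecule, at -0.52 ± 0.08 and -0.46 ± 0.07 (adjusted p = 0.000709 and 0.00498). The E-cadherin repressors Snai1, Snai2, Zeb1, Zeb2 and Twist1 had adjusted p of 0.137 to 0.879 with CHIR99021. Over the 10 genes the median log2 fold change was -0.35 in the parental line and 0.04 in the knock-out. At an unadjusted edgeR p of 0.05, 1 was higher and 4 were lower in the parental line, and 0 and 3 in the knock-out. With CHIR99021 in both lines 4 of the 10 differed between the lines, 40.0% against 23.7% of all genes. Of these Zeb1 (0.37 ± 0.07, edgeR adjusted p = 0.00244), Zeb2 (1.33 ± 0.37, 0.0225) and Grhl2 (0.85 ± 0.16, 0.00314) were higher in the knock-out. Tcf3 (-0.19 ± 0.06, 0.0292) was lower. The Zeb2 call was lost with DESeq2 (0.18) and without parental CHIR99021 replicate 1 (0.136) or 2 (0.0565) or knock-out CHIR99021 replicate 2 (0.175), and the Tcf3 call without parental CHIR99021 replicate 1 (0.247) or knock-out CHIR99021 replicate 2 (0.218). Of 8 genes of cadherin turnover and shedding, 1 rose and 1 fell in the parental line by edgeR (25% against 19.4% of all genes), where DESeq2 called 1 higher and 0 lower, and 0 passed in the knock-out by either tool, with 2 at an unadjusted p of 0.05 (medians 0.00 and 0.04). The riser was the protease gene Adam15, at 0.67 ± 0.06 (adjusted p = 1.6e-05), with an interaction of -0.56 ± 0.08 (adjusted p = 0.00227).

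**Figure D4:**
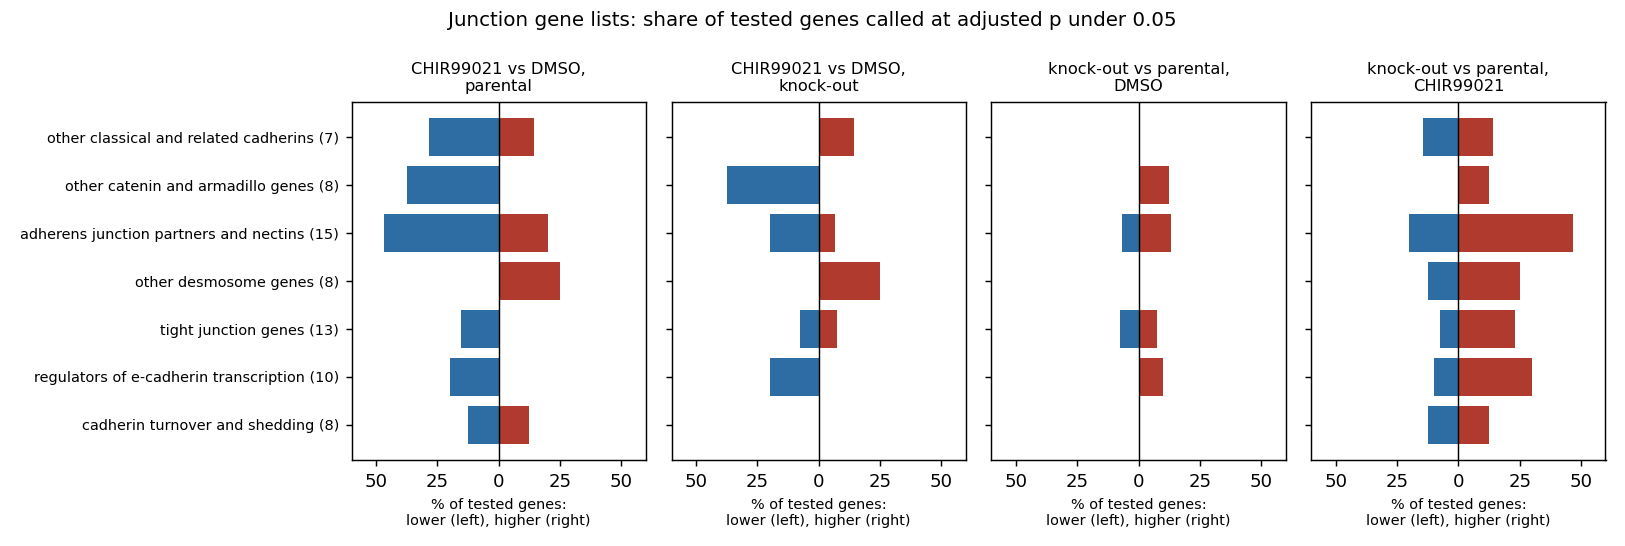
Share of the tested genes of each junction list that passed an adjusted p of 0.05, lower to the left and higher to the right, for the 4 comparisons; numbers in brackets are genes tested. Of the adherens junction partners 7 of 15 are lower and 3 higher with CHIR99021 in parental cells, and 7 are higher and 3 lower in the knock-out against parental cells with CHIR99021.

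The genes whose levels followed those of the catenins and cadherins most closely over the 8 libraries were found by Pearson correlation of log2 CPM among 9866 genes averaging at least 5 CPM, as a description. The libraries fall into 4 groups, so a high value reflects the order of the group means. For Ctnnb1 they were Tti1 (r = 0.996), Cdc25c (0.992) and Stard7 (0.991), all with a much smaller step between the lines than Ctnnb1: Tti1 was at 80.8 CPM in parental and 68.7 CPM in knock-out cells with DMSO. For Cdh3 they were Lhx6 (0.993), Gfra2 (0.992) and Slc6a15 (0.992). Lhx6, a homeobox gene, was at 9.38, 3.71, 6.85 and 4.51 CPM on average in parental DMSO, parental CHIR99021, knock-out DMSO and knock-out CHIR99021, the same order of groups as Cdh3. Those closest to Pkp2 were Slc1a3 (0.985), Fbxo6 (0.982) and Ube3c (0.981), and those closest to Jup were Tubb4b (0.979), Rbfa (0.977) and Ulk1 (0.975). Ulk1, a kinase that starts autophagy, went from 146.3 ± 4.95 to 100.1 ± 6.85 CPM with CHIR99021 in the knock-out and was at 141.0 ± 7.83 and 134.7 ± 12.9 CPM in parental cells (SD, n = 2 each).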

How the data were processed

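The authors deposited expected counts, estimated reads per Ensembl gene made with kallisto (version not given in the sources used here) on build GRCm38.p4, per the submitters' processing notes. Libraries were made with a stranded mRNA kit, per the labels' protocols; the transcript set and strand setting of the counting are not given in the sources used here. Counts were rounded. Genes were kept with edgeR 4.0.16 filterByExpr (at least 10 counts, 15 in total), leaving 17739 genes and 99.905% to 99.918% of counts; TMM factors were 0.9857 to 1.0181. edgeR's quasi-likelihood test, fitted to all 8 libraries with a term for each of the groups (4 residual degrees of freedom), gave 5 comparisons, 2-sided, with Benjamini-Hochberg adjustment over all genes and calls at 0.05. SE was derived from the fold change and its F statistic. The common biological coefficient of variation was 0.0532. The chi-square of replicate counts per degree of freedom was 3.262 to 4.856, so no 2 libraries were taken as 1. Alternatives were DESeq2 1.42.0, relative log expression factors, no filter beyond 1 read, at least 5 CPM in 2 libraries, compared groups alone, a replicate block and leaving out each library. Coordinates and exon lengths came from GENCODE M21 (GRCm38), matched on gene identifier, and promoters from RefSeq. The procedure was tested on simulated data. Genes and lists were chosen with earlier results of these data known. Named genes are the 10 members, Cdh2, up to 4 called genes per list, taken by lowest adjusted p, and the 3 most correlated genes for Ctnnb1 and the 3 other members of widest range. A gene of the tight junction list is counted but not reported by name here.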

Additional observations from a re-analysis of the deposited data

Results flagged for a closer look

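The response to CHIR99021 differed between the lines by the interaction test for 3 of the 9 tested catenin, cadherin and desmosome genes: Cdh3 at 0.80 ± 0.11 (SE; edgeR adjusted p = 0.00155), Jup at -0.33 ± 0.07 (adjusted p = 0.0123) and Cdh1 at -0.25 ± 0.06 (adjusted p = 0.0356), on the log2 scale, where a positive value means that the knock-out responded more upward than parental cells. Over all 17739 genes tested the interaction was called for 6.13%. Cdh3 fell in both lines and less in the knock-out, Jup fell in the knock-out, and Cdh1 moved in opposite directions without passing in either line. The Cdh3 call held in all 13 alternatives tried. The Jup call was lost in 3 of 13 (values from -0.378 to -0.284) and the Cdh1 call in 6 of 13 (values from -0.282 to -0.209). Among the named genes of the junction lists the interaction passed for Zyx at -1.60, Krt19 at -1.50, Lima1 at -0.80, Adam15 at -0.56, Krt8 at -0.53, Cldn4 at 0.61, Afdn at 0.40, Ctnnal1 at 0.31 and Plekha7 at 0.31. Krt19 rested on 1.16 ± 0.241 to 2.26 ± 0.482 CPM (SD, n = 2 each) and lost its call with DESeq2 (adjusted p = 0.216) and without 6 of the 8 libraries in turn, Krt8 lost its call with DESeq2 (adjusted p = 0.088), and Ctnnal1 and Plekha7 lost theirs without knock-out CHIR99021 replicate 1 (adjusted p = 0.0536 and 0.0516).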

How the results depend on the processing

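Over 45 fold changes of the 9 tested genes and 621 recomputed values, 579 kept direction and side of the threshold, 18 lost and 13 gained a call, and 11 changed sign; the cause was not tested. Those that changed sign were not called: with the stricter filter Jup between the lines in DMSO was 0.011, and leaving out single libraries gave -0.049 to 0.046 for it, -0.052 to 0.007 for Jup with CHIR99021 in parental cells, -0.245 to 0.186 for Ctnnb1 and -0.021 to 0.088 for Dsp with CHIR99021 in the knock-out, and in the interaction -0.131 to 0.295 for Ctnnb1, -0.009 to 0.033 for Ctnna1 and -0.039 to 0.066 for Dsp. Cdh2 between the lines in DMSO ranged from -0.298 to 0.151.

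Counts over all genes, in the order CHIR99021 in parental cells, CHIR99021 in the knock-out, the lines in DMSO, the lines in CHIR99021, and interaction, were 3441, 1252, 1198, 4200 and 1087. DESeq2 called 2029, 734, 701, 2483 and 661, and no filter gave 2167 for the second, 2064 for the third and 1990 for the interaction. Leaving out 1 library gave 2057 to 3507, 307 to 1237, 357 to 1047, 2509 to 4353 and 605 to 1143. Of the 9 genes DESeq2 called 1 with CHIR99021 in parental cells, and leaving out 1 library 1 to 2; no filter called 5 with CHIR99021 in the knock-out, and the interaction had 1 to 2 with 1 library left out. The ratio of Jup to Ctnnb1 per kilobase in parental DMSO was 0.16 with the longest transcript.

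Replicate numbers share no stated origin; differences between replicates 1 and 2 correlated at -0.177 to 0.405 between groups, so the numbers were not taken as pairs. With a replicate block 3434, 1313, 1225, 4296 and 1135 genes were called, and 2, 4, 3, 4 and 3 of the 9, Dsg2 being the gain with CHIR99021 in the knock-out (adjusted p = 0.0424). With the numbers of parental DMSO crossed, chosen after seeing the data, 1961 genes and 5 of the 9 were called with CHIR99021 in the knock-out and 1695 genes in the interaction. Small differences are limited by 2 libraries a group, and Ctnna2 by its few counts.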
